A study of Mus musculus with 6 samples.

Results

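Cell cycle and DNA replication genes were read in the livers of NZB/BinJ (NZB) and SM/J (SM) mice, 2 inbred strains supplied by the Jackson Laboratory. A list of 38 genes covered the cyclins and their kinases, the factors that license and copy DNA, and the proteins that divide the chromosomes. Every probe set that the platform annotation pairs with 1 of these genes alone was taken. That gave 93 probe sets for 37 genes, of 45037 probe sets and 18193 named genes on the array. Ccnb1 was not analysed here. All 6 mice were labelled female, untreated and 8 weeks old, 3 of NZB and 3 of SM, with 1 array of whole-liver RNA each. Both strains ate chow after weaning at 3 weeks and were fasted for 4 hours. Their livers were flushed with 50 mL of phosphate-buffered saline before freezing. The comparison asked how the untreated livers of the strains differ. The strains differ throughout the genome, so a difference between them cannot be assigned to any single allele.

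Cells enter the cycle when D-type cyclins, bound to their kinases, release E2F factors that switch on the genes for DNA synthesis. The MCM helicase, loaded at origins beforehand, opens the DNA for copying in S phase, then cyclin A, cyclin B and Cdk1 drive mitosis, and the anaphase-promoting complex ends it. In the unstressed adult liver most hepatocytes rest outside the cycle and keep only a low level of the S phase and mitotic messages, while dividing blood and immune cells in the tissue can also contribute such messages.

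Readings are log2 expression, with 1 unit standing for a 2-fold change, and differences are NZB minus SM. The array medians lay between 6.60 and 6.66, and arrays correlated at 0.995 to 0.997 within a strain and at 0.985 to 0.987 between strains. The array of SM replicate 2 stood apart in Xist, the RNA of the inactive X chromosome. The brightest Xist probe set read 12.66, 12.63 and 12.61 in NZB, against 12.84, 7.32 and 12.91 in SM. The low Xist reading of SM replicate 2 goes against its female label. The highest reading of the Y-linked genes Ddx3y, Eif2s3y, Kdm5d and Uty was 5.40 on that array. It was 5.49 and 5.67 on the other SM arrays and 5.54 to 5.57 in NZB. The highest of a wider set of 15 Y-linked probe sets was 7.92 on that array, against 7.70 and 7.74 on the other SM arrays. In NZB it was 7.85 to 8.04. Results are therefore given with and without SM replicate 2. Hepatocyte markers were bright, as the tissue label requires, with a log2 summed level of 16.97 to 17.01 in NZB and 17.02 to 17.04 in SM.

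Most cell cycle probe sets did not clear a background level drawn from the upper readings of genes that the liver has little use for. The background level of an array was set at the 95th percentile of 44 olfactory receptor probe sets, which was 7.30, 7.36 and 7.32 in NZB, against 7.10, 7.10 and 7.18 in SM. The olfactory receptor median lay between 5.59 and 5.79. A probe set counted as above background in a strain where all 3 of its arrays exceeded that level. Any other probe set is called below background in that strain, although single arrays may exceed the level. By this rule 21 of the 93 cell cycle probe sets were above background in both strains, 4 in NZB alone, 1 in SM alone and 67 in neither. At least 1 probe set was above background for 14 genes, and for 23 genes none was. A reading below background is only a bound on the level, so no fold is given there.

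Among the 93 probe sets, 27 were higher and 5 were lower in NZB at an adjusted p under 0.05 (limma's moderated test, adjusted by Benjamini-Hochberg over all 45037 probe sets). The higher ones were 29% of the set, against 6.09% of all probe sets, and the lower ones 5.38%, against 8.69%. Of all probe sets, 14.8% passed in either direction. The 27 belonged to 16 genes, the 5 to Cdk4, Gmnn and Pcna, and 18 genes had no probe set past the threshold. Probe sets marked _s_at or _x_at can bind related transcripts, and without them 19 were higher and 4 lower. In that setting 5.74% of all probe sets were higher and 8.42% lower. Over the whole array 10.1% of genes had a probe set called higher and 14.3% one called lower. In bulk liver, fewer cells of a type and less RNA per cell cannot be told apart.

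The calls were also counted by brightness. Above background in both strains, 4 cell cycle probe sets were higher and 4 lower in NZB, of 21 (19% each). Over all probe sets of that class 8.96% were higher and 17.4% lower. Below background in both strains, 21 of 67 were higher (31.3%, against 4.2% of all probe sets of that class). By limma 0 were lower, against 2.67% of that class, with 0 lower at an unadjusted p under 0.05 too. The median difference was 0.04 over the brighter 21 and 0.13 over the dimmer 67, against -0.03 and 0.04 over all probe sets of the same classes. The olfactory receptors themselves had a median difference of 0.06, with 37 of 44 positive and 2 called higher. NZB arrays lay wholly above SM arrays in 41 of the 93 (44.1%, against 18.2% of all probe sets) and wholly below in 6 (6.45%, against 16.1%). Without SM replicate 2 the counts were 18 higher and 2 lower, where 3.63% and 5.51% of all probe sets were called. Leaving out NZB replicate 3 gave 19 higher and 1 lower (3.29% and 5.02% of all probe sets), and leaving out NZB replicate 2 gave 20 and 2 (3.91% and 5.88%). Without SM replicate 1 they were 20 and 3 (5.11% and 7.43%).

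**Figure D1:**
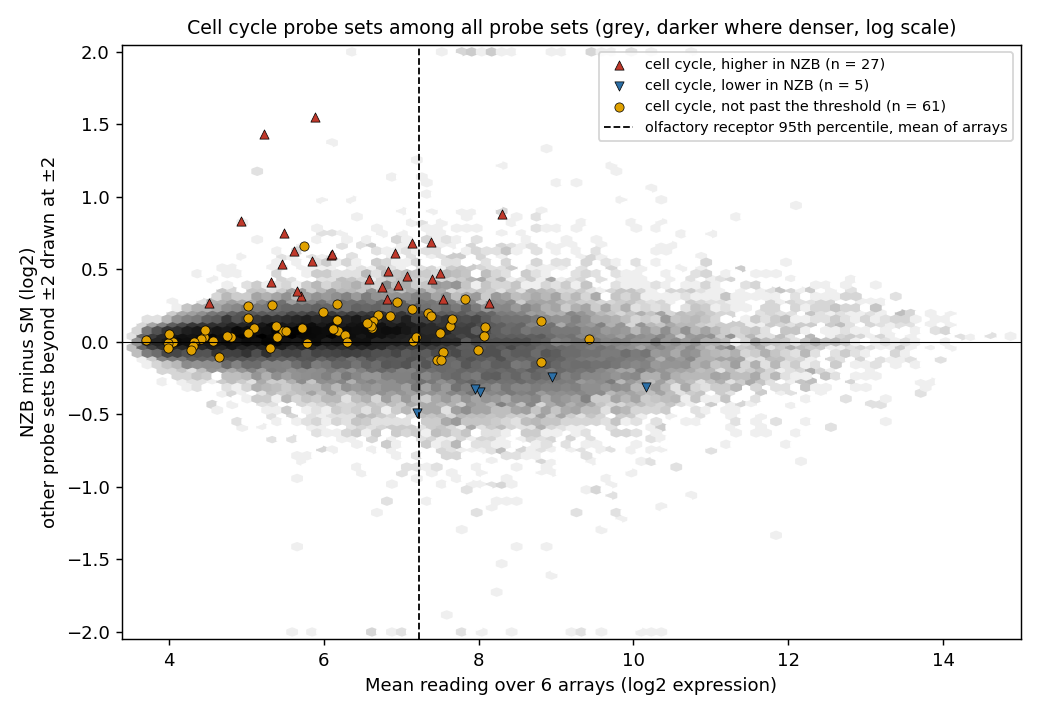
Difference between strains (NZB minus SM, log2) against the mean reading over 6 arrays (log2 expression), with all probe sets as a grey density and the cell cycle probe sets as coloured points. Left of the dashed background level the coloured points past the threshold all lie above 0 except Gmnn (-0.49), just beside the line, and to its right they fall on both sides of 0.

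Promoter sequences are shown for 5 genes that were higher in NZB, from mitotic to replicative roles, and for Pcna and Cdk4, which were lower. They are windows of 300 bases from RefSeq on GRCm38.p6, from 250 bases before the start site to 50 after it, printed 5′ to 3′ on the gene's strand. The window of Mki67 is chr7:135716330-135716629 (minus strand), that of Cdk1 chr10:69352863-69353162 (minus), that of Cdc20 chr4:118437294-118437593 (minus) and that of Mcm6 chr1:128359656-128359955 (minus). The window of Rrm2 is chr12:24708004-24708303 (plus strand), that of Pcna chr2:132253131-132253430 (minus) and that of Cdk4 chr10:127063285-127063584 (plus). Capitals mark, on either strand, the CCAAT box, spelled by those letters, and the cell cycle homology region, spelled TTTGAA. They also mark 4 forms of the E2F core. These are TTCCCGC, the related form TTGGCGC, the form TTCGCGC and the last form, which is TTGCCGC. In a longer run of capitals E2F cores of opposite strands overlap.
Mki67: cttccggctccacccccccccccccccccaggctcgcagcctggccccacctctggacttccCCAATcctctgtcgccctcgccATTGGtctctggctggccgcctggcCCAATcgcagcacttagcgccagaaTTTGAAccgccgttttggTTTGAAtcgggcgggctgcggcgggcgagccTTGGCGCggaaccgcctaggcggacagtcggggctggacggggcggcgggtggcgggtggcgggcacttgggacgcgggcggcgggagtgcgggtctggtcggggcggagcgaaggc
Cdk1: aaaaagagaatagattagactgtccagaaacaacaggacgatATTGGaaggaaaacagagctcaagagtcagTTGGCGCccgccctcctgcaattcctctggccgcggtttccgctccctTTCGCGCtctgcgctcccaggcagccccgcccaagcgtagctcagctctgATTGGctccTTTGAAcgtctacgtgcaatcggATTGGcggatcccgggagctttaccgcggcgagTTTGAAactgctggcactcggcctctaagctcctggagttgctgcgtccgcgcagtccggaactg
Cdc20: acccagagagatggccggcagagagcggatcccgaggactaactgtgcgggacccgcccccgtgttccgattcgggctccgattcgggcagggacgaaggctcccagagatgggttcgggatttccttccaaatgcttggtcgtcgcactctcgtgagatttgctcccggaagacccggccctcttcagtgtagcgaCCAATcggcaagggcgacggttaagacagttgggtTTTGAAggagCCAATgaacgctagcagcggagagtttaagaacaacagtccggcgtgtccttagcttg
Mcm6: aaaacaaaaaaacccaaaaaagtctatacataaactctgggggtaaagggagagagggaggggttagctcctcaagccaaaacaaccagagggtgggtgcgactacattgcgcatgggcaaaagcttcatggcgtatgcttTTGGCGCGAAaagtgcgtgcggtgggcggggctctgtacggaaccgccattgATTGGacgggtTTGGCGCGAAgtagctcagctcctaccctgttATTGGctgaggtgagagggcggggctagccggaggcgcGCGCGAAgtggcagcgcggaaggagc
Rrm2: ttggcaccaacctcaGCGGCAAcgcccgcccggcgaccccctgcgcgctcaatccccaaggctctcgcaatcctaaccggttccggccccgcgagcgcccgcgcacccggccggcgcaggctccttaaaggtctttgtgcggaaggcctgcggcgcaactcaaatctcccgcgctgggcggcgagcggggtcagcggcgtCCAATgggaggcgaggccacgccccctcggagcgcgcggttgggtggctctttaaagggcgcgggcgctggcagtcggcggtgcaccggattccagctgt
Pcna: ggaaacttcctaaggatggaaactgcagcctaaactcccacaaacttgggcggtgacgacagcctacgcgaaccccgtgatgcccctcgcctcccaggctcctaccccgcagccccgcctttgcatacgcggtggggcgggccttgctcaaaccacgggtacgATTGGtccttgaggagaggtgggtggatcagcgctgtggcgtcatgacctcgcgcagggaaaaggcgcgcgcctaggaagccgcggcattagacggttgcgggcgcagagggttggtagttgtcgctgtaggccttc
Cdk4: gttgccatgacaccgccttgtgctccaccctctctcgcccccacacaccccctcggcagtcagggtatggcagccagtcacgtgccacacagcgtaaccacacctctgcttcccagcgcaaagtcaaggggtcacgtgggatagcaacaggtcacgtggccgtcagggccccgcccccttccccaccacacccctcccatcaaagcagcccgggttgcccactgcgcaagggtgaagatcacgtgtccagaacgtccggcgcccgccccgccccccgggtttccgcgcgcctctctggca
The Mki67 window held 3 CCAAT boxes, 2 homology regions and 1 E2F core, and the Cdk1 window 3, 2 and 2. The Cdc20 window held 2 CCAAT boxes and 1 homology region, and the Mcm6 window 2 CCAAT boxes and 5 E2F cores. Rrm2 had 1 CCAAT box and 1 E2F core, Pcna 1 CCAAT box, and the Cdk4 window had no match to these letters.

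Over 32 windows of 30 cell cycle genes, 24 held a CCAAT box (75%, against 37.4% of all 32851 windows of that length). The homology region was in 12 (37.5%, against 17.9%) and an E2F core in 13 (40.6%, against 9.57%). Among the 12 windows of genes higher in NZB the counts were 11, 7 and 6. Among the 17 windows of measured genes with no call they were 11, 5 and 6. The 2 windows of genes lower in NZB held 1, 0 and 0, and the window of Ccnb1 held a CCAAT box and an E2F core. A match is a description of letters and was not read as a site. Different motifs overlapped in 2 of the 32 windows and in none of the 7 printed ones.

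**Figure D2:**
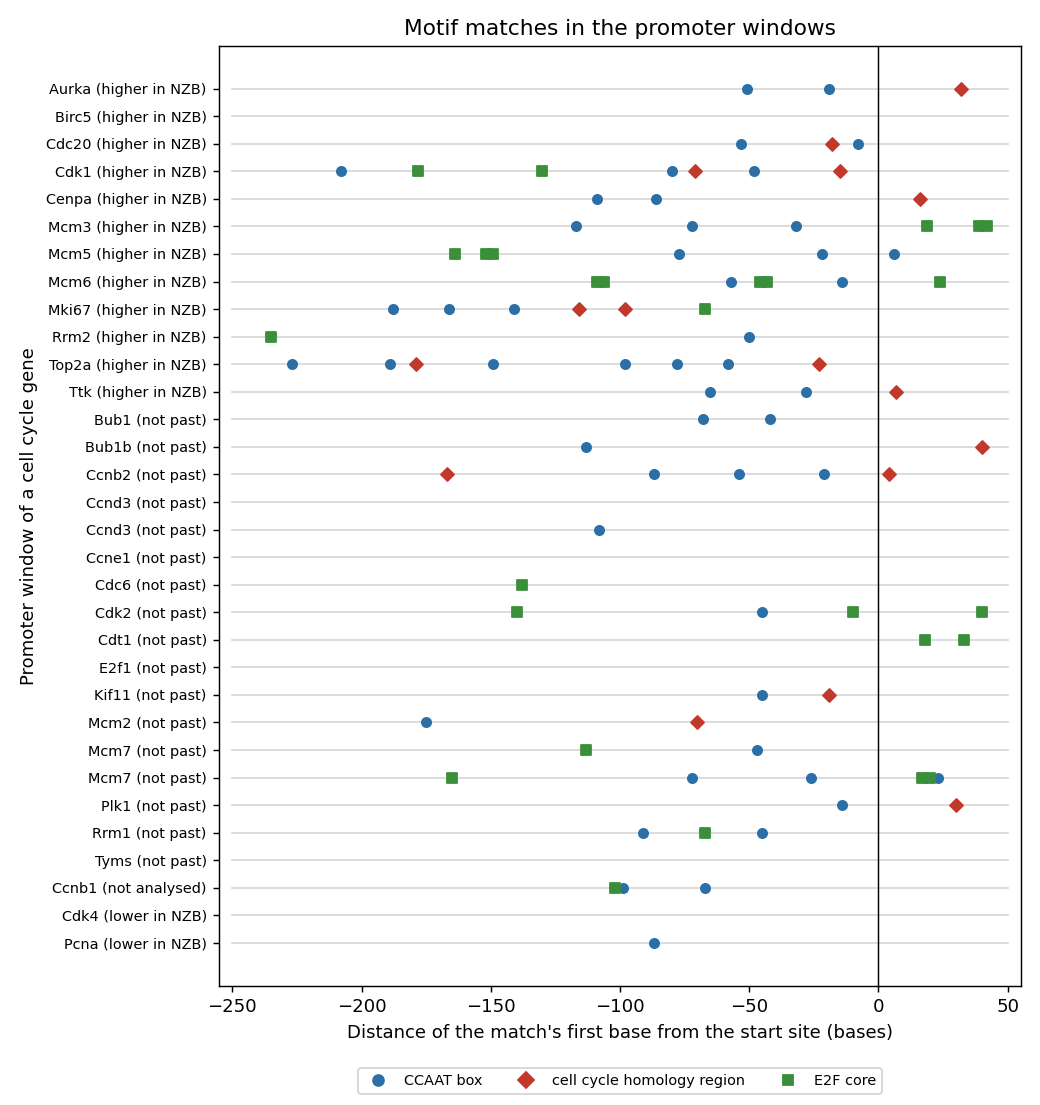
Position of each motif match in the promoter windows of 30 cell cycle genes, as the distance in bases from the start site, with windows down the page grouped by the strain difference of the gene. CCAAT boxes (circles) are in 11 of the 12 windows of genes higher in NZB, and the homology region (diamonds) is in 7 of them, Cdk1, Mki67 and Top2a with 2 each.

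Among the G1 cyclins and their kinases, cyclins D1 and D2 were higher and Cdk4 was lower in NZB. Of 21 probe sets 6 were higher and 3 lower, against 6.09% and 8.69% of all probe sets. Ccnd1, which pairs with Cdk4 and Cdk6 to start the cycle, read 8.72, 8.55 and 8.95 in NZB, against 7.42, 8.12 and 8.03 in SM, on probe set 1417420_at. All 3 NZB arrays lay above all 3 SM arrays, of which SM replicate 1 was the lowest. The difference was 0.88 ± 0.17 (SE, n = 3 each; adjusted p = 0.00975), or 1.84-fold, and 1.01 (adjusted p = 0.0134) without SM replicate 2. Probe set 1417419_at of Ccnd1 read 7.55, 7.80 and 7.83 in NZB, against 6.77, 7.27 and 7.07 in SM, where it was not above background, so NZB was at least 1.46-fold higher (difference 0.69, adjusted p = 0.00686). The groups did not overlap there either. The other Ccnd1 probe set, 1448698_at, read 8.74, 8.80 and 9.08 in NZB and 8.46, 8.80 and 8.94 in SM. Its groups overlapped and its difference of 0.14 did not pass (adjusted p = 0.518), so the probe sets of Ccnd1 disagreed.

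Ccnd2 encodes the related cyclin D2 and was read by 7 probe sets, of which 4 were higher in NZB. Probe set 1416122_at read 8.30, 8.32 and 8.17 in NZB and 7.99, 7.97 and 8.02 in SM. The groups did not overlap, and the difference was 0.27 ± 0.065 (SE; adjusted p = 0.0254), or 1.20-fold. On 1455956_x_at the readings were 7.59, 7.74 and 7.74 in NZB and 7.26, 7.40 and 7.52 in SM, a difference of 0.30 (adjusted p = 0.0399). On 1434745_at they were 7.65, 7.62 and 7.57 in NZB and 7.37, 7.07 and 7.10 in SM, at least 1.32-fold higher in NZB (difference 0.44, adjusted p = 0.0103). NZB lay wholly above SM on each of these probe sets. A further one, 1448229_s_at, was below background in both strains and differed by 0.43 (adjusted p = 0.00267). Without SM replicate 2, 1416122_at and 1455956_x_at lost their call (adjusted p = 0.0871 and 0.101), and 1434745_at and 1448229_s_at kept theirs (0.0443 and 0.0142). Without NZB replicate 1, NZB replicate 2 and SM replicate 1, 1416122_at had adjusted p = 0.0784, 0.0905 and 0.054. Without NZB replicate 2, NZB replicate 3 and SM replicate 1, 1455956_x_at had 0.123, 0.134 and 0.0997. The other Ccnd2 probe sets differed by 0.03 to 0.29 with no call.

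Cdk4, the kinase that D-type cyclins activate, was lower in NZB on all 3 of its probe sets, all above background. Probe set 1422440_at read 7.83, 7.84 and 7.69 in NZB, against 8.12, 8.14 and 8.08 in SM. Each NZB array was below each SM array, with a difference of -0.33 ± 0.066 (SE; adjusted p = 0.0108), and -0.32 (adjusted p = 0.0449) without SM replicate 2. Probe set 1422439_a_at read 7.97, 7.73 and 7.83 in NZB and 8.22, 8.13 and 8.22 in SM, a difference of -0.34 (adjusted p = 0.0163) that was 0.0361 without SM replicate 2 and lost its call without NZB replicate 2 (0.0588) or NZB replicate 3 (0.0631). Probe set 1422441_x_at read 8.90, 8.75 and 8.83 in NZB and 9.03, 9.04 and 9.12 in SM, a difference of -0.24 (adjusted p = 0.0414). That call ended without NZB replicate 2, NZB replicate 3 or any 1 SM array (adjusted p from 0.0625 to 0.137) and under quantile normalization (0.185). The groups overlapped on none of these 3 probe sets, and the largest of the differences was 1.27-fold.

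No call was made for the other G1 genes. Ccnd3, cyclin D3, read 9.43, 9.39 and 9.50 in NZB and 9.39, 9.45 and 9.42 in SM on its brightest probe set. These groups overlapped, with a difference of 0.02 (adjusted p = 0.857). Its sign turned with array medians aligned (-0.01) and without NZB replicate 3 (-0.01). The 8 probe sets of Ccnd3, of cyclins E1 and E2 (Ccne1, Ccne2) and of their kinase Cdk2 differed by -0.10 to 0.16.

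**Figure D3:**
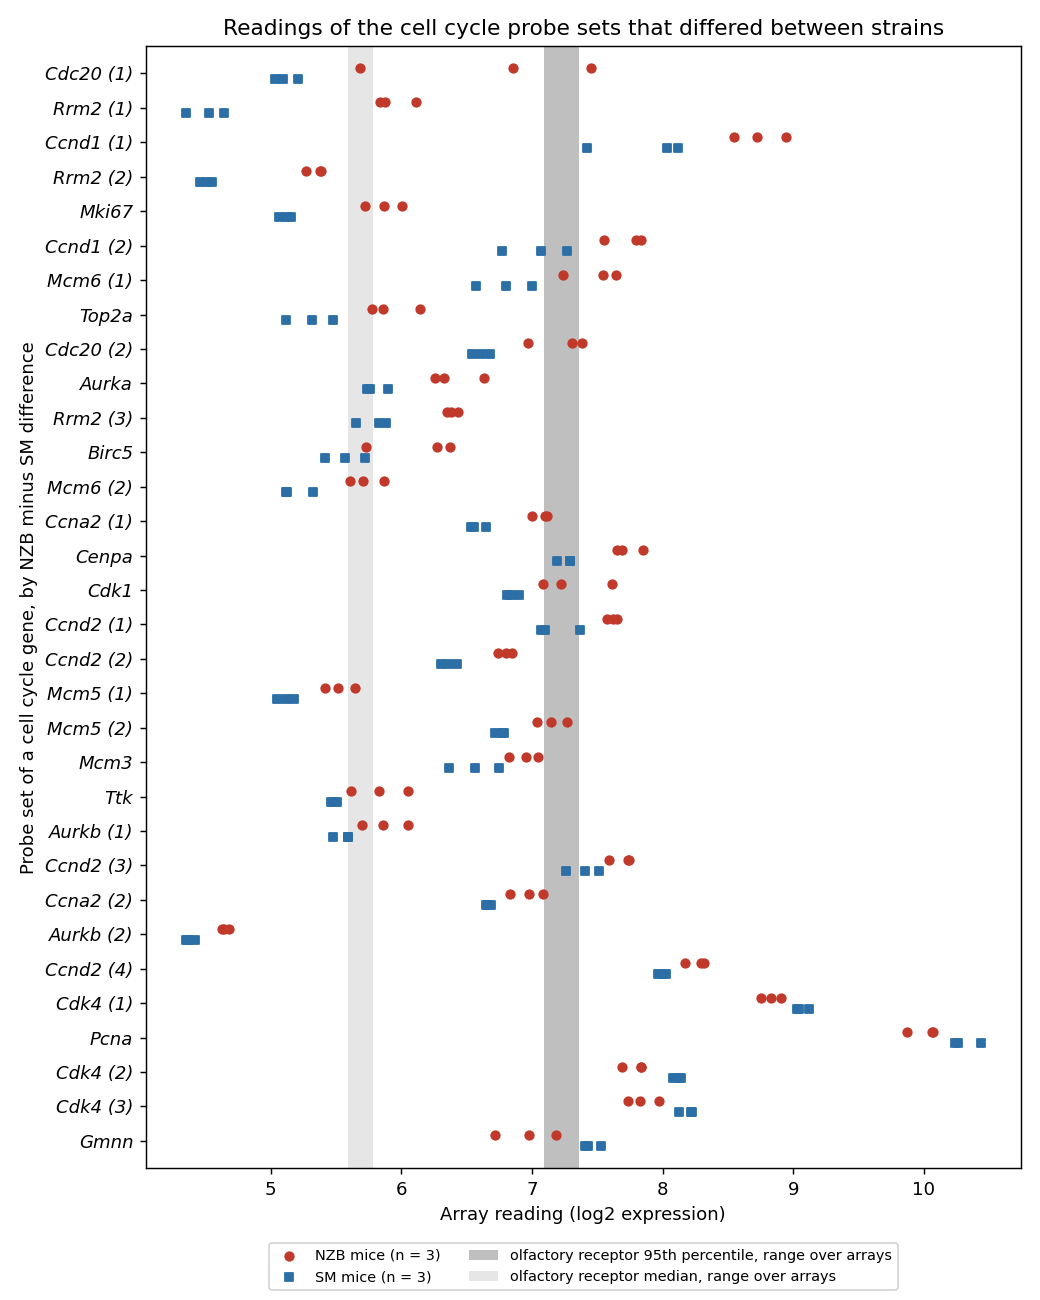
Array readings (log2 expression) of the 32 cell cycle probe sets past the threshold, ordered down the page by the NZB minus SM difference, with 3 NZB mice as circles and 3 SM mice as squares; numbers in brackets tell apart probe sets of 1 gene. The groups overlap in none of the 32, which were chosen by the test on these same arrays, so this is no further support. Most of the largest differences lie left of the dark band, the range of the background level over arrays (7.10 to 7.36).

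Cyclin A2 and Cdk1, the engine of S phase and mitosis, were higher in NZB but counted as below background in both strains. Of 4 probe sets in this group 3 were higher and 0 lower, with 0 lower at an unadjusted p under 0.05 as well. All 4 were below background in both strains, a class where 4.2% of all probe sets were higher and 2.67% lower. The genes below background that are given with their readings here and in the following paragraphs were chosen after their values were seen. Ccna2, which serves both S phase and entry into mitosis, read 7.0, 7.11 and 7.10 in NZB, against 6.65, 6.55 and 6.53 in SM, on 1417910_at. NZB lay wholly above SM, by 0.49 ± 0.065 (SE; adjusted p = 0.00146), and by 0.48 (adjusted p = 0.00914) without SM replicate 2. Its other probe set, 1417911_at, differed by 0.30 (adjusted p = 0.0298) and lost the call without NZB replicate 2, NZB replicate 3 or any 1 SM array (adjusted p from 0.0536 to 0.106).

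Cdk1, the mitotic kinase whose promoter is printed above, read 7.08, 7.61 and 7.22 in NZB and 6.90, 6.81 and 6.84 in SM. NZB replicate 2 was the highest array and alone exceeded its background level (7.36), and the groups did not overlap. The difference was 0.46 ± 0.12 (SE; adjusted p = 0.0343) and 0.30 without NZB replicate 2. The call ended without NZB replicate 3 (adjusted p = 0.075), SM replicate 1 (0.0553), SM replicate 2 (0.106) or SM replicate 3 (0.069). Ccnb2, a B-type cyclin that activates Cdk1, read 5.56, 6.61 and 6.07 in NZB and 5.46, 5.29 and 5.51 in SM. NZB was wholly above SM but spread over more than 1 unit, and the difference of 0.66 ± 0.213 did not pass (adjusted p = 0.0703).

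The transcription factors of the cycle were not called. E2f1 drives the genes of S phase and Foxm1 those of mitosis. By limma 0 of their 7 probe sets passed, with 3 higher and 0 lower at an unadjusted p under 0.05. On 1417748_x_at, its brightest probe set, Foxm1 read 7.43, 7.51 and 7.65 in NZB and 7.50, 7.45 and 7.45 in SM. The groups overlapped, with a difference of 0.07 (adjusted p = 0.602). The other Foxm1 probe sets differed by -0.01 to 0.25 and those of E2f1 by 0.10 to 0.19. In each of 4 alternatives 1 of the 7 was called higher, namely with trended and robust variances, with array weights, without NZB replicate 1 and without SM replicate 3. In these settings 6.08%, 7.43%, 4.21% and 5.51% of all probe sets were higher.

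Among the genes that license origins and form the replicative helicase, 5 of 24 probe sets were higher in NZB and 1 was lower. The shares over all probe sets were 6.09% and 8.69%. Gmnn, which holds back relicensing by binding Cdt1, read 6.72, 7.18 and 6.98 in NZB, against 7.40, 7.53 and 7.43 in SM. The NZB arrays were all below the SM arrays and only SM was above background, so NZB was at least 1.09-fold lower. The measured difference was -0.49 ± 0.109 (SE; adjusted p = 0.0165), and the call ended without NZB replicate 3 (0.0569) or SM replicate 2 (0.0656).

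Subunits 3, 5 and 6 of the MCM helicase were higher in NZB, on probe sets that counted as below background in both strains. Mcm6 read 7.24, 7.55 and 7.64 in NZB, against 7.0, 6.57 and 6.80 in SM, on 1416251_at. Its readings on NZB replicates 2 and 3 exceeded the background levels of those arrays (7.36 and 7.32). NZB was wholly above SM, by 0.68 ± 0.129 (SE; adjusted p = 0.00831), and by 0.57 (0.0308) without SM replicate 2. Its probe set 1438852_x_at read 5.60, 5.71 and 5.87 in NZB and 5.33, 5.12 and 5.12 in SM, a difference of 0.54 (adjusted p = 0.00436). A further Mcm6 probe set, 1447756_x_at, differed by 0.00. Mcm5 was higher on 1436808_x_at, at 7.04, 7.14 and 7.27 in NZB and 6.78, 6.78 and 6.72 in SM (difference 0.39, adjusted p = 0.0076). On 1415945_at the difference was 0.41 (adjusted p = 0.00739). Both held without SM replicate 2 (adjusted p = 0.0271 and 0.0303), and its other probe set differed by 0.08.

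Mcm3 was called on 1 of 5 probe sets, at 6.83, 7.05 and 6.96 in NZB and 6.37, 6.75 and 6.57 in SM. The groups did not overlap and the difference was 0.38 ± 0.101 (SE; adjusted p = 0.0355), with 0.0216 without SM replicate 2. The call ended without NZB replicate 2 (adjusted p = 0.119), NZB replicate 3 (0.109), SM replicate 1 (0.0789) or SM replicate 3 (0.067), for the mean of its probe sets (0.109) and with array weights (0.0507). Its other probe sets differed by 0.07 to 0.18. Mcm7, another subunit and the brightest of this group, read 8.74, 8.65 and 8.81 in NZB and 8.91, 8.80 and 8.90 in SM. These groups overlapped, with a difference of -0.14 that did not pass (adjusted p = 0.216). The 4 probe sets of Mcm7 differed by -0.14 to 0.10, and those of Mcm2, Mcm4 and the loading factors Cdc6 and Cdt1 by -0.12 to 0.16, with no call.

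Pcna and Rrm2, which serve the copying fork and its nucleotide supply, went in opposite directions. Pcna encodes the sliding clamp that holds DNA polymerase on its template. It read 9.87, 10.07 and 10.07 in NZB, against 10.44, 10.26 and 10.24 in SM, well above background in both. NZB lay wholly below SM, by -0.31 ± 0.082 (SE; adjusted p = 0.036), or 1.24-fold. The call ended on leaving out NZB replicate 1 (0.107), NZB replicate 2 (0.0623), NZB replicate 3 (0.0719), SM replicate 1 (0.0917) or SM replicate 2 (0.074), and under quantile normalization (0.102), while the difference stayed negative.

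Rrm2, the regulated subunit of ribonucleotide reductase, was higher in NZB on all 3 of its probe sets, all below background. On 1434437_x_at it read 5.88, 5.84 and 6.11 in NZB, against 4.64, 4.53 and 4.36 in SM. The difference of 1.44 ± 0.097 (SE; adjusted p = 3.4e-05) left more than 1 unit between the closest arrays of the strains. On 1448226_at it read 5.27, 5.38 and 5.38 in NZB and 4.51, 4.46 and 4.55 in SM, a difference of 0.835 (adjusted p = 6.7e-05). On 1416120_at it read 6.35, 6.44 and 6.38 in NZB and 5.88, 5.65 and 5.83 in SM, a difference of 0.60 (adjusted p = 0.00101). All 3 held without SM replicate 2, with differences of 1.44, 0.81 and 0.53. Rrm1, the partner subunit, differed by -0.12 to -0.04 on 3 probe sets and Tyms, which makes thymidylate, by -0.03 to 0.11 on 4, with no call.

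The mitotic kinases, spindle checkpoint genes and the activator of the anaphase-promoting complex had 7 of 16 probe sets higher in NZB. The share over all probe sets was 6.09%, and it was 4.2% below background in both strains, the class of 15 of these 16. By limma 0 of the 16 were lower, against 8.69% of all probe sets, with 0 lower at an unadjusted p under 0.05. Without SM replicate 2 the count higher was 2, without NZB replicate 2 it was 4 and without NZB replicate 3 it was 3. In those settings 3.63%, 3.91% and 3.29% of all probe sets were higher. Cdc20 activates the anaphase-promoting complex. It read 5.68, 7.45 and 6.86 in NZB, against 5.21, 5.09 and 5.03 in SM, on 1439377_x_at. NZB was wholly above SM by 1.55 ± 0.352 (SE; adjusted p = 0.0188), with NZB replicate 1 far below the other NZB arrays. The call ended without SM replicate 2 (0.0621) or NZB replicate 3 (0.0782), with differences of 1.54 without the first of these and 1.16 without NZB replicate 2, and it ended with trended and robust variances (0.117).

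On 1416664_at Cdc20 read 6.97, 7.38 and 7.30 in NZB and 6.54, 6.61 and 6.68 in SM, a difference of 0.61 ± 0.104 (SE; adjusted p = 0.00515) that held without SM replicate 2 (0.0232). On 1439394_x_at, above background in NZB alone, it read 7.47, 7.48 and 7.49 in NZB and 7.43, 7.36 and 7.11 in SM. These groups did not overlap, and the difference of 0.18 did not pass (adjusted p = 0.208). The 3 probe sets of Cdc20 thus shared a direction and differed in size.

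Aurka, the kinase of the spindle poles, read 6.26, 6.64 and 6.32 in NZB, against 5.90, 5.76 and 5.74 in SM. The groups did not overlap, and the difference was 0.605 ± 0.101 (SE; adjusted p = 0.00469), with an adjusted p of 0.0234 without SM replicate 2. Aurkb and Birc5 are partners in the complex that corrects chromosome attachment. Aurkb read 5.70, 6.05 and 5.86 in NZB and 5.47, 5.59 and 5.59 in SM on 1424128_x_at (difference 0.32, adjusted p = 0.0487). On 1451246_s_at it read 4.68, 4.64 and 4.63 in NZB and 4.37, 4.35 and 4.42 in SM (difference 0.27, adjusted p = 0.0156). Birc5 read 5.73, 6.38 and 6.28 in NZB and 5.57, 5.72 and 5.42 in SM (difference 0.56, adjusted p = 0.0432). NZB lay wholly above SM in each case, although for Birc5 NZB replicate 1 was barely above SM replicate 2.

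Ttk, a checkpoint kinase, read 5.62, 5.83 and 6.05 in NZB and 5.48, 5.46 and 5.51 in SM (difference 0.35, adjusted p = 0.0492), again without overlap. Without SM replicate 2 the Aurkb probe sets differed by 0.34 and 0.25 (adjusted p = 0.102 and 0.0618), Birc5 by 0.63 (0.0663) and Ttk by 0.34 (0.135). Leaving out any 1 array but NZB replicate 1 ended the call of Aurkb 1424128_x_at (0.0714 to 0.137), Birc5 (0.0663 to 0.152) and Ttk (0.0794 to 0.135), and leaving out NZB replicate 1 ended that of Aurkb 1451246_s_at (0.0534). Aurkb 1424128_x_at, Birc5 and Ttk also lost their calls with array medians aligned (0.0609, 0.0539 and 0.0659) and under quantile normalization (0.0653, 0.0578 and 0.0696). Birc5 lost its call with trended and robust variances (0.0589) and Ttk for the mean of its probe sets (0.0613). Further probe sets of Aurka and Ttk differed by 0.03 and 0.04 with no call. Plk1, another mitotic kinase, read 7.11, 7.33 and 7.31 in NZB and 7.07, 6.95 and 7.05 in SM, and did not pass (difference 0.23, adjusted p = 0.0871). The 5 probe sets of the checkpoint genes Bub1 and Bub1b differed by -0.05 to 0.28 with no call.

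Genes for the mitotic chromosome and spindle had 3 of 10 probe sets higher in NZB, against 6.09% of all probe sets. By limma 0 of the 10 were lower, against 8.69%, also 0 at an unadjusted p under 0.05. The counts higher and lower were 3 and 0 without SM replicate 2 too, where 3.63% and 5.51% of all probe sets were called. Cenpa, the histone variant that marks centromeres, was above background in both strains on 1450842_a_at. It read 7.66, 7.69 and 7.85 in NZB, against 7.29, 7.29 and 7.19 in SM. The groups did not overlap, and the difference was 0.47 ± 0.072 (SE; adjusted p = 0.00302), or 1.39-fold, with 0.49 (0.0126) without SM replicate 2. Its 2 dimmer probe sets differed by -0.04 and 0.09, and the mean of its probe sets did not pass (adjusted p = 0.0623).

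Mki67, a protein of dividing cells that coats mitotic chromosomes and a standard marker of proliferation, read 5.72, 5.87 and 6.0 in NZB, against 5.16, 5.06 and 5.13 in SM. All were below background, and the NZB arrays lay wholly above by 0.75 ± 0.080 (SE; adjusted p = 4.5e-04), with 0.72 (0.0035) without SM replicate 2. Top2a, the topoisomerase that untangles sister chromosomes, read 5.78, 5.86 and 6.14 in NZB and 5.31, 5.12 and 5.48 in SM on 1454694_a_at. It too was wholly above, by 0.62 ± 0.116 (SE; adjusted p = 0.0075), with 0.53 (0.0301) without SM replicate 2. Its other probe sets differed by 0.07 and 0.13. Kif11, a spindle motor, differed by -0.01 to 0.26 over 3 probe sets with no call.

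**Figure D4:**
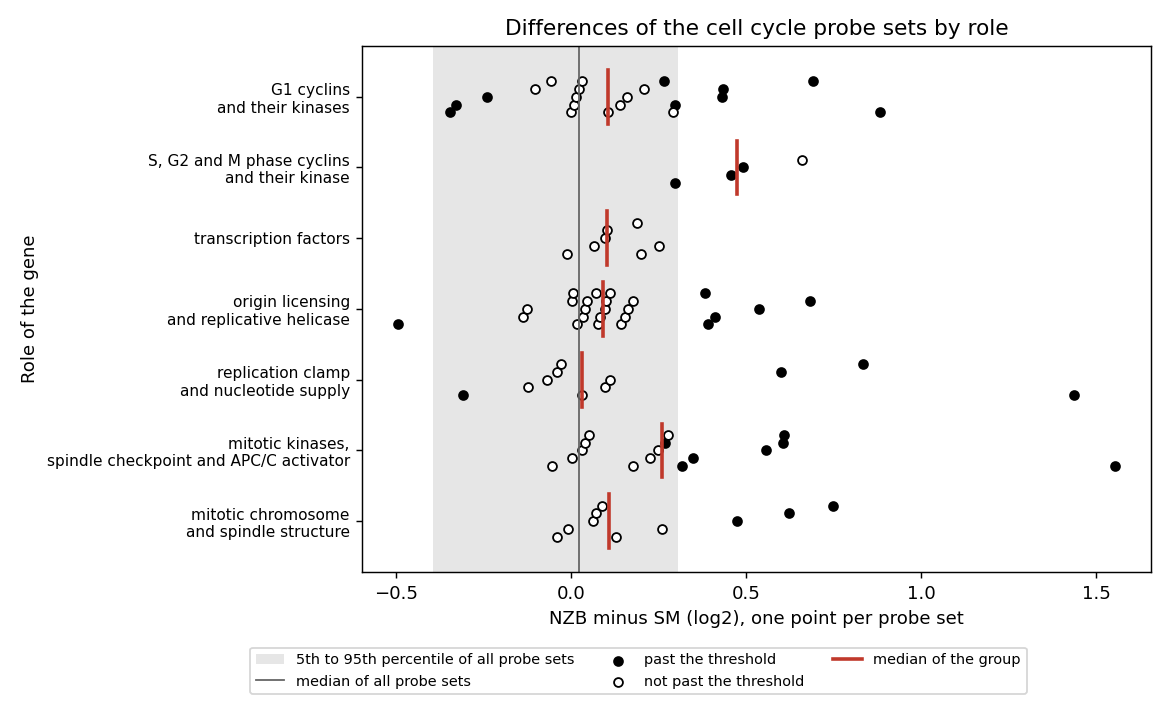
NZB minus SM difference (log2) of each of the 93 cell cycle probe sets by the role of the gene, filled where past the threshold, with the group median as a red bar and the 5th to 95th percentile of all probe sets (-0.395 to 0.307) as a grey band. The medians run from 0.03 for the clamp and nucleotide genes to 0.47 for the cyclins of S, G2 and M phase, and the probe sets below 0 past the threshold are in 3 groups.

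By role the median difference was 0.47 for the S, G2 and M phase cyclins and Cdk1 (4 probe sets) and 0.26 for the mitotic kinases and checkpoint genes (16). It was 0.11 for the G1 group (21), 0.11 for chromosome and spindle structure (10) and 0.10 for the transcription factors (7). It was 0.09 for licensing and the helicase (24) and 0.03 for the clamp and nucleotide supply (11). Over all members it was 0.11, against 0.02 over all probe sets. NZB replicate 1 was the lowest NZB array in 21 of the 27 probe sets called higher (77.8%), while it was the lowest in 35% of all probe sets called higher and in 36.8% of all probe sets. What sets that array apart was not tested.

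Of the other cell cycle and replication genes, 129 were measured of 132 listed. A probe set was higher for 21 genes and lower for 15, with 1 gene in both counts, and 94 had no call. Over the whole array 10.1% of genes had a probe set higher and 14.3% one lower. The largest share was in mitosis and cytokinesis, with 12 of 35 genes higher and 2 lower. Of these 35 genes, 27 had no probe set above background in either strain. Without NZB replicate 3 the 12 became 6, without NZB replicate 2 they became 8, and without SM replicate 2 they became 10. In those settings 3.29%, 3.91% and 3.63% of all probe sets were higher, against 6.09% with all arrays. Spc25, a kinetochore subunit, was at least 1.51-fold higher in NZB (difference 0.64, adjusted p = 0.00281), Kif22, a chromosome motor, 1.32-fold higher (0.40, adjusted p = 0.0181) and Pttg1, securin, 1.22-fold higher (0.29, adjusted p = 0.0254). Spc24, the direct partner of Spc25, was 1.39-fold lower (difference -0.48, adjusted p = 0.022). Without SM replicate 2, Spc25 and Pttg1 kept their calls (0.00684 and 0.0291), and Kif22 and Spc24 lost theirs (0.0516 and 0.0566). The call of Pttg1 ended without NZB replicate 1 (0.0706), NZB replicate 3 (0.0979), SM replicate 1 (0.0681) or SM replicate 3 (0.0569), and for the mean of its probe sets (0.0532). That of Kif22 also ended without NZB replicate 2 (0.0667) or NZB replicate 3 (0.0736) and for the mean of its probe sets (0.083). That of Spc24 also ended without NZB replicate 1 (0.0633), NZB replicate 3 (0.0866) or SM replicate 1 (0.0578) and under quantile normalization (0.0503). Chosen after its values were seen, the condensin subunit Ncapg differed by 1.07 and 1.10 on 2 probe sets below background (adjusted p = 2.6e-04 and 8.8e-05). Ect2, which directs the cleavage furrow and was likewise below background, differed by -1.40 (adjusted p = 0.00187) and was also chosen after its values were seen.

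Among CDK inhibitors and pocket proteins 1 of 10 genes was higher, 1 was lower and 8 had no call, where 10.1% of all genes were higher and 14.3% lower. Rb1, the retinoblastoma protein, was 1.40-fold higher in NZB (difference 0.48, adjusted p = 0.00858). Cdkn2c, an inhibitor of Cdk4 and Cdk6, was 1.74-fold lower (-0.80, adjusted p = 0.00158). Both held without SM replicate 2 (0.015 and 0.001). Of 10 growth arrest genes measured 2 were higher, 1 was lower and 7 had no call. Ccng2, an atypical cyclin linked to arrest, was 1.83-fold higher (0.87, adjusted p = 0.00896), and Btg2, an antiproliferative gene, at least 1.55-fold lower (-0.82, adjusted p = 0.00103). Both kept their calls without SM replicate 2 (0.0253 and 0.00614).

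Of 15 other E2F, MYC and DREAM complex genes 2 were higher and 4 lower, with E2f6 in both counts. The shares over all genes were 10.1% higher and 14.3% lower. The probe sets of E2f6, a repressive E2F, went opposite ways, at 0.78 (adjusted p = 6.8e-04) and -0.52 (adjusted p = 0.00164). Tfdp2, a dimer partner of E2Fs, was lower by 1.52-fold (-0.60, adjusted p = 0.00395), and E2f5, another repressive E2F, by 1.25-fold (-0.32, adjusted p = 0.015). Of 13 other cyclins, kinases and phosphatases 2 were higher and 3 lower, among them Cdk6 at 0.30, Wee1, which restrains Cdk1, at -0.65 and Cdk7, which activates other kinases of the family, at -0.27 (adjusted p = 0.0213, 7.1e-04 and 0.0384). Of 35 origin and fork genes 2 were higher and 4 lower, with the single-strand binding subunit Rpa3 at 0.57, the polymerase delta subunit Pold2 at -0.76 and topoisomerase Top1 at -0.44 (adjusted p = 0.0154, 0.00226 and 0.0239). Without SM replicate 2 the calls of E2f5, Cdk6, Cdk7 and Top1 ended (adjusted p = 0.0624, 0.0758, 0.128 and 0.0836). Other single arrays left out also ended these calls, NZB replicates 2 and 3 for E2f5 (0.0583 and 0.0621), NZB replicates 1 and 3 and SM replicate 1 for Cdk6 (0.0652, 0.0502 and 0.0517), and NZB replicates 2 and 3 and SM replicate 3 for Top1 (0.081, 0.0685 and 0.0609). For Cdk7 any 1 array but NZB replicate 1 did so (0.0587 to 0.133). Rpa3 lost its call without NZB replicate 1 (0.053) or NZB replicate 3 (0.0692). The gene mean ended the calls of Cdk7 (0.156) and Top1 (0.0737), and quantile normalization that of Top1 (0.068). By limma 0 of 11 genes for nucleotide supply and chromatin assembly were called, with 7 of their 30 probe sets higher and 3 lower at an unadjusted p under 0.05.

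Markers of other cell types also differed between the strains, where 10.1% of all genes had a probe set higher and 14.3% one lower. The log2 summed level of 9 B and plasma cell markers was 13.86 to 14.37 in NZB and 13.02 to 13.17 in SM, with 4 genes higher and 1 lower. The sum takes the brightest probe set of each gene. In SM the brightest were those of Xbp1 (mean 12.20) and Sdc1 (11.68), which differed by 0.13 and 0.04 with no call. Ighm and Jchain, parts of secreted IgM, were higher in NZB, by up to 4.43 for Ighm and by 4.28 for Jchain. The probe sets of Ighm disagreed, with differences of 4.43, 4.35, 0.94 and 0.26 where called. The other Ighm probe sets differed by 0.01 to 0.11 with no call, among them 0.07 on a probe set above background in both strains. Xbp1, which hepatocytes also use, differed by -3.07 on 1 of its 4 probe sets. The other Xbp1 probe sets, all above background, differed by -0.02 to 0.16 with no call, so its probe sets disagreed. Cd79a, Cd79b, Ms4a1 and Pou2af1 were below background, and Ms4a1 (0.38) and Pou2af1 (0.475) were among the 4 called higher. Kupffer cell and macrophage markers summed to 13.41 to 13.66 in NZB and 12.88 to 13.02 in SM, with 7 of 10 genes higher, such as Lyz2 (2.32) and Cd5l (0.75). Marco was lower (-0.66), a call that ended without NZB replicate 1 (adjusted p = 0.056) or NZB replicate 3 (0.0588). Clec4f and Timd4 differed by 0.03 and 0.12 with no call. T and NK cell markers summed to 9.98 to 10.03 in NZB and 9.75 to 9.86 in SM (4 of 8 genes higher, 6 of 8 below background, Cd3d and Cd3g among them). Without SM replicate 2 the 4 became 1, where 3.63% of all probe sets were higher, against 6.09% with all arrays. Neutrophil and myeloid precursor markers summed to 9.99 to 10.15 in NZB and 9.71 to 9.75 in SM (3 of 8 higher, 6 of 8 below background). The summed level of erythroid markers went the other way, at 9.81 to 10.03 in NZB and 10.37 to 10.90 in SM. Alas2, Klf1 and Tfrc were called lower (differences of -1.10, -0.73 and -0.65). Epb42, Hba-a1 and Slc4a1, the other 3 of the 6 genes measured, were below background, and their probe sets differed by 0.06 to 0.11 with no call. Alas2 lost its call without NZB replicate 1 (adjusted p = 0.07), without NZB replicate 3 (0.0834) and where variances were trended and robust (0.0997). Tfrc was called on 1 of 3 probe sets, and the others differed by -0.04 and 0.13. Endothelial markers summed to 12.29 to 12.41 in NZB and 12.23 to 12.32 in SM (2 of 8 higher, 2 lower). For stellate cell and cholangiocyte markers limma called 0 of 8 and 0 of 5 genes, with 7 and 2 probe sets at an unadjusted p under 0.05, and it called 2 of 7 hepatocyte markers lower. The part of these cell types in the cell cycle readings was not tested.

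**Figure D5:**
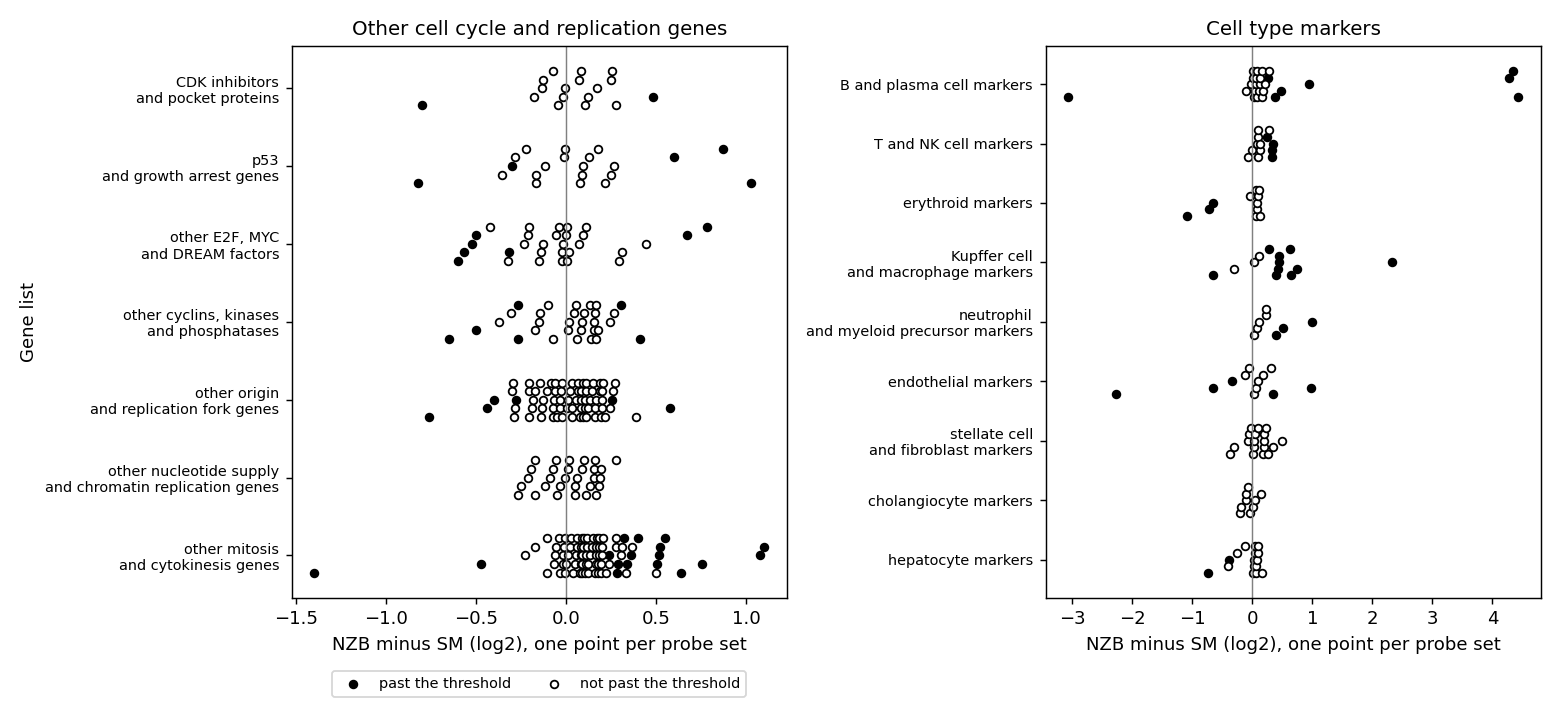
NZB minus SM difference (log2) of each probe set of the other cell cycle and replication lists (left) and of the cell type marker lists (right), 1 point per probe set, filled where past the threshold. Filled points lie on both sides of 0 in most lists at left, with 15 to the right and 2 to the left of 0 for mitosis and cytokinesis; at right the widest differences are those of B and plasma cell markers, from -3.07 to 4.43.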

How the data were processed

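Liver RNA of 3 NZB and 3 SM mice was measured on 1 expression array each. The values the authors deposited were taken as log2. Per the submitters' processing notes they come from RMA, whose version is not given in the sources used here. Of 45037 probe sets the platform annotation pairs 34945 with 1 gene, 932 with several and 9160 with none, and 34741 of the symbols were brought up to date with RefSeq's gene table (GRCm38.p6). NZB was set against SM by limma (version 3.58.1, lmFit and eBayes, R 4.3.3), with a threshold of 0.05 on the adjusted p. With 3 arrays against 3 an exact permutation test cannot go below 0.1 and was not used. Bounds ("at least") set the brighter strain's mean against the higher, per array, of the background level and the dimmer reading. Levels of different probe sets are not comparable. Probe sequence variants between strains were not analysed here. By rule a cell cycle gene was described by array where it had a call above background or was the brightest of its role, and up to 3 genes per direction came from each other list. Further cell cycle genes, such as Mki67, Rrm2 and Plk1, were added after their values were seen. The members and lists were chosen with earlier results of these data known. Listed genes without such a probe set were not analysed here. Same-numbered replicates did not deviate together (correlations 0.037, -0.055 and 0.025).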

Additional observations from a re-analysis of the deposited data

How the results depend on the processing

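Of the 32 cell cycle probe sets called, 17 kept the call in every alternative that gave them a value. Of the 32, 15 lost it in at least 1 and 0 changed sign. The 17 belonged to 11 genes: Aurka, Ccna2, Ccnd1, Ccnd2, Cdc20, Cdk4, Mcm5, Mcm6, Mki67, Rrm2 and Top2a. For Ccnd1, Cdc20 and Top2a the alternative with the brightest probe set per gene gave the called probe sets no value. It took brighter probe sets of these genes, which differed by 0.14, 0.18 and 0.13 with no call. The count higher in NZB (27) was 13 with the brightest probe set per gene (8.47% of all genes called). It was 13 with the mean of a gene's probe sets (8.62%). With only probe sets above background, where fewer probe sets were tested, it was 6 (10.9%). With 1 array left out it was 18 to 29, where 3.29% to 5.51% of all probe sets were called higher. The count lower (5) was 3 with the replicate number as a block (8.01% of all probe sets) and 3 under quantile normalization (7.45%). It was 3 with the brightest probe set (12.6% of all genes) and 3 with the gene mean (10.4%). With 1 array left out it was 1 to 4, where 5.02% to 8.67% of all probe sets were called lower. Genes higher (16) numbered 3 above background and 12 to 19 with 1 array left out, and genes lower (3) 1 to 3. Other listed genes higher (21) numbered 9 above background and 11 to 21 with 1 array left out, and lower ones (15) 8 to 17. The share of all genes called was not counted with an array left out. Over the whole array fewer probe sets were called in each of those settings than with all arrays. The probe sets above background in both strains (21) and in at least 1 (26) numbered 8 and 12 at the highest Y-linked reading and 9 and 13 at the olfactory 99th percentile. Against 2 levels chosen after seeing the data they numbered 54 and 65 (highest of Ddx3y, Eif2s3y, Kdm5d and Uty) and 53 and 60 (olfactory median), so how many members count as expressed depends on the level set. The median difference (0.112) was 0.177 with the brightest probe set and 0.163 with the gene mean. Signs turned for Ccnd3 1415907_at (-0.010 with medians aligned, -0.010 to 0.048 with 1 array left out), Mcm7 1438320_s_at (0.012 as gene mean) and E2f6 1448835_at (0.13 as gene mean); the cause was not tested. Over all probe sets the split of 2745 higher and 3914 lower was 2080 and 4556 with medians aligned and 2856 and 3354 under quantile normalization. The numbers are not shown to pair the mice; with the block Ccnd2 1416122_at, Cdk4 1422441_x_at and Pcna had adjusted p = 0.0528, 0.0686 and 0.0726, and Pttg1 and Cdk7 0.0523 and 0.0643. Most calls lie below background, where signal limits what a difference can show.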
